A study of Cyanidioschyzon merolae strain 10D with 12 samples.

Results

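The genes described here are the 95 of 4970 in the deposited table of Cyanidioschyzon merolae whose MapMan functional category is posttranslational modification of proteins. The category came with the table, and genes were also left out by identifier. No measured value entered this rule, but it was chosen with earlier results of these data known. Protein kinases transfer a phosphate from ATP to serine, threonine or tyrosine, and protein phosphatases remove it. The balance of these opposing enzymes sets the phosphorylation state of metabolic enzymes, transporters and the light-harvesting apparatus without new protein synthesis. Other members attach lipids such as farnesyl or myristoyl groups to proteins, or repair oxidised and aged amino acids.

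Descriptions in the table are those of the best Arabidopsis match, so each name below is a similarity and not a measured function. By description, 39 members were catalytic kinases and 3 were regulatory subunits of kinases. There were 10 catalytic serine/threonine phosphatases, 11 tyrosine or dual-specificity phosphatases and 6 phosphatase regulators. A further 5 members attach or process lipid groups and 4 repair or otherwise modify proteins. The remaining 17 had a description of another or of unknown function, among them chaperonins, small GTPases and galactolipases, so the category name covers 78 of the 95. The Arabidopsis match had an E-value above 1e-05 for 5 members, CME181C, CMM216C, CMS234C, CMM051C and CMH140C. Members were also split by words in the description, which gave 47 kinases, 24 phosphatases and 24 others, but 8 of those 47 kinases were phosphatases, regulators or other proteins.

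C. merolae 10D is a unicellular red alga of hot acidic springs, and the cultures were wild type. Conditions other than CO2 were held constant at 30 °C and a light intensity of 90 µmol photons per square metre and second, with a starting optical density of 0.7. The groups were HC 0 h (5% CO2 in the aeration gas, before any shift), LC 3 h and LC 24 h (3 h and 24 h after lowering CO2 to 0.04%) and HC 24 h recovery (24 h after the return to 5%). Each group had 3 libraries, which the labels call biological replicates, and since 5% CO2 was sampled without a prior shift at 0 h alone, CO2 and time in culture cannot be told apart in a comparison of one low-CO2 time with HC 0 h. The recovery group was the latest in time and was at 5% CO2. Against HC 0 h, 80 of the 95 members were not called there, beside 4181 of all 4865 genes tested, and the members' count depended on single libraries. In bulk RNA from a culture, fewer cells of a kind and less RNA per cell cannot be told apart either.

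Estimated counts summed to between 9671514 and 12063877 per library at HC 0 h and LC 3 h, and to between 13366144 and 28346661 at LC 24 h and recovery. The root-mean-square log2 distance of a library from the mean of the other 2 of its group, over all genes tested, was 0.530 for LC 24 h replicate 1 and 0.413 for LC 3 h replicate 1, and between 0.198 and 0.350 for the other 10. Over the members alone it was 0.538 for LC 3 h replicate 1, 0.521 for LC 3 h replicate 3 and 0.434 for LC 24 h replicate 1, and without the low-count kinase CMO218C these were 0.391, 0.204 and 0.436. Genes listed without a length held 1.37% to 6.46% of the counts at LC 3 h and at most 0.827% elsewhere, and their part in the LC 3 h values was tested by leaving them out, which gave 26 members higher and 24 lower at LC 3 h against 26 and 22 with them. The members together held 1.79% to 1.83% of all counts at HC 0 h, 1.81% to 1.9% after recovery, 1.72% to 1.86% at LC 3 h and 2.29% to 2.33% at LC 24 h. The LC 24 h libraries stood above all 9 others in this share. It is a share of counts before scaling between libraries, so it also moves with the counts of all other genes. After scaling, the median log2 change of the members at LC 24 h from HC 0 h was 0.08.

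Per transcript length, the median member was close to the median gene of this alga. The members' mean level at HC 0 h ran from 2.43 to 781.0 TPM (transcript abundance scaled for gene length and library size) with a median of 110.1 TPM, beside a median of 108.2 TPM over the 4956 genes with a length. The highest level, 781.0 ± 102.7 TPM (SD, n = 3), belonged to CMP173C, matched to a methyltransferase of prenylated proteins. It was followed by CMI283C, a match to the ribosome-associated scaffold RACK1, at 727.3 ± 39.9 TPM, within 1 SD of CMP173C. The lowest levels were those of the PDK1-like kinase CMO090C at 2.43 ± 0.726 TPM and the shaggy-like kinase CMO218C at 5.8 ± 1.75 TPM.

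All 95 members passed the filter on low counts. Counts were tested with edgeR, and a member was called higher or lower at a Benjamini-Hochberg adjusted p under 0.05 over all 4865 genes tested. At LC 3 h, 26 members were higher and 22 lower than at HC 0 h, 50.5% of the members, where 41.4% of all genes tested were called (22.1% higher, 19.3% lower). At LC 24 h, 42 were higher and 29 lower, 74.7% of the members beside 63% of all genes (32.7% higher, 30.3% lower). Changes of at least 2-fold were called in 8 members at LC 3 h and 15 at LC 24 h, with a background of 7.07% and 14.6% of genes. The median log2 change of the members was 0.01 at LC 3 h and 0.08 at LC 24 h, and that of all genes was 0.02 at both. Taken alone, the 78 members with a modification role had 22 higher and 14 lower at LC 3 h and 38 higher and 20 lower at LC 24 h. Without LC 3 h replicate 1 the count at LC 3 h was 28 higher and 27 lower, and without LC 24 h replicate 1 the count at LC 24 h was 41 higher and 28 lower.

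**Figure D1:**
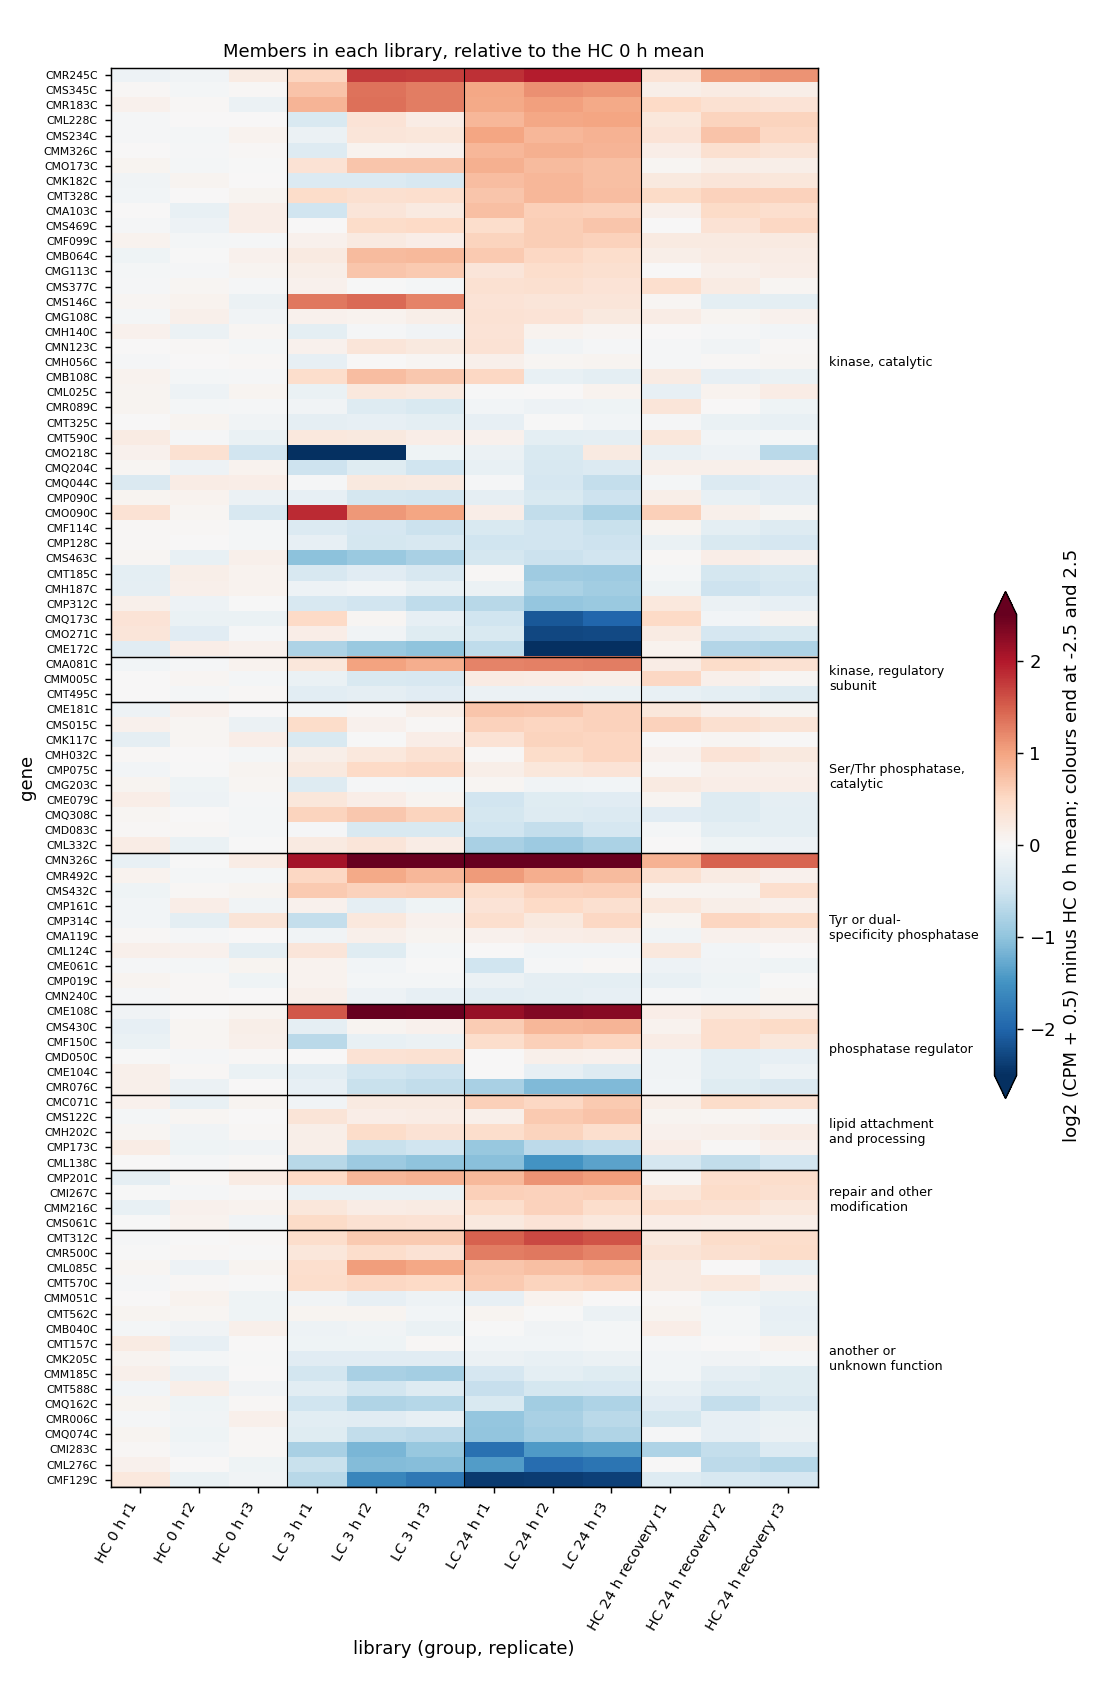
Each row is 1 of 94 of the 95 members and each column 1 of the 12 libraries, and the colour gives log2 (CPM + 0.5) minus the mean of the HC 0 h libraries, with colours ending at -2.5 and 2.5. Rows are grouped by role and sorted by the change at LC 24 h, and a few rows, among them CMN326C and CME108C, hold most of the dark red.

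Among the catalytic kinases, 11 of 39 were higher and 8 lower at LC 3 h, and 17 were higher and 10 lower at LC 24 h. These were 28.2% and 20.5% of the kinases at LC 3 h (22.1% and 19.3% of all genes) and 43.6% and 25.6% at LC 24 h (32.7% and 30.3% of all genes). Members that were high at both low-CO2 times included matches to kinases of splicing control and of stress signalling. CMR245C matched AME3, a LAMMER-type kinase of the family that phosphorylates splicing factors in animals and plants. Its normalised read counts (CPM, scaled to library size) were 173.3, 179.3 and 219.4 at HC 0 h, 276.5, 640.3 and 630.3 at LC 3 h, 675.1, 745.3 and 743.7 at LC 24 h, and 243.7, 396.3 and 412.7 after recovery. Every low-CO2 library lay above every HC 0 h library, and LC 3 h replicate 1 was the lowest of the low-CO2 libraries. The log2 change from HC 0 h was 1.44 ± 0.29 (SE) at LC 3 h (edgeR adjusted p = 0.00256) and 1.92 ± 0.30 at LC 24 h (adjusted p = 0.000231).

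CMS345C, matched to MAP4K alpha1, an upstream kinase type of mitogen-activated protein kinase cascades, gave 284.3, 269.9 and 282.8 CPM at HC 0 h. It gave 458.6, 713.0 and 674.2 CPM at LC 3 h, 547.1, 614.1 and 601.0 CPM at LC 24 h, and 309.9, 321.1 and 306.7 CPM after recovery. The low-CO2 libraries did not overlap with those at 5% CO2, and the log2 change was 1.14 ± 0.14 at LC 3 h and 1.07 ± 0.14 at LC 24 h (edgeR adjusted p = 8.54e-05 and 6.1e-05). CMR183C matched WNK6, of a kinase family named for the displaced lysine of its active site. It rose from 380.7 ± 33.7 to 864.6 ± 159.8 CPM at LC 3 h and stood at 746.5 ± 19.4 CPM at LC 24 h (SD, n = 3), log2 changes of 1.18 ± 0.13 and 0.97 ± 0.13. Members described only as protein kinases went both ways. CMO173C rose by 0.59 ± 0.09 and 0.81 ± 0.09 on the log2 scale, while CMP312C was lower, at -0.50 ± 0.13 and -0.86 ± 0.13.

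The 2 matches to thylakoid kinases of plants moved in opposite directions. In Arabidopsis STN8 phosphorylates core subunits of photosystem II and STN7 phosphorylates light-harvesting proteins during state transitions. The STN8 match CMS146C had 131.2, 134.7 and 114.7 CPM at HC 0 h, 318.0, 337.6 and 299.8 at LC 3 h, 160.4, 156.7 and 156.8 at LC 24 h, and 131.5, 106.9 and 107.3 after recovery. It was high at LC 3 h in every replicate and fell back by LC 24 h. Its log2 change from HC 0 h was 1.33 ± 0.09 at LC 3 h (edgeR adjusted p = 1.58e-06) and 0.32 ± 0.09 at LC 24 h (adjusted p = 0.0115). The call at LC 24 h ended without HC 0 h replicate 3 (adjusted p = 0.0504), and the fall from LC 3 h to LC 24 h was -1.01 ± 0.09 (adjusted p = 1.82e-05).

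The STN7 match CMS463C had 57.8, 49.2 and 60.6 CPM at HC 0 h, 27.1, 29.2 and 31.6 at LC 3 h, 40.8, 38.1 and 40.0 at LC 24 h, and 56.9, 62.5 and 60.3 after recovery. Both sets of low-CO2 libraries lay below all libraries at 5% CO2. The log2 change was -0.93 ± 0.09 at LC 3 h and -0.50 ± 0.09 at LC 24 h (edgeR adjusted p = 1.88e-05 and 0.000647). Between LC 3 h and LC 24 h it rose by 0.44 ± 0.09, and from LC 24 h to recovery it rose by 0.60 ± 0.09. Both genes therefore had their largest departure at 3 h.

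**Figure D2:**
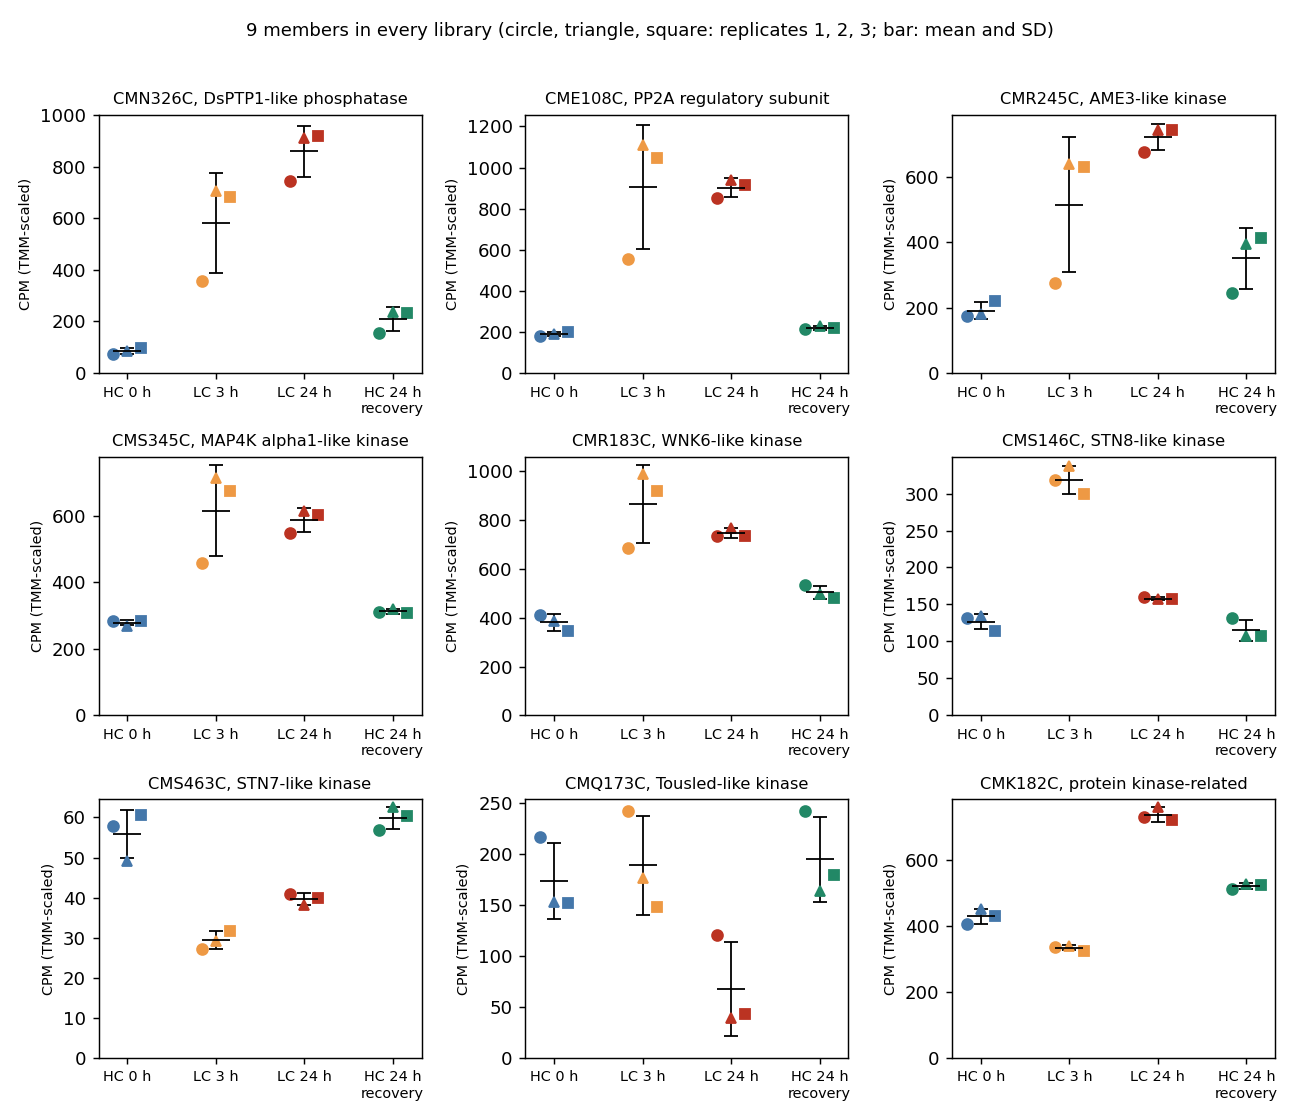
Points are the TMM-scaled CPM of 9 members in every library of the 4 groups, with marker shapes for replicates 1, 2 and 3 and bars for the mean and SD. Every vertical axis starts at 0; CMS146C peaks at LC 3 h, CMS463C is lowest there, CMK182C is low at LC 3 h and high at LC 24 h, and CMQ173C is low in 2 of the 3 LC 24 h libraries.

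Other kinases were called at 24 h and not at 3 h, and their difference between the low-CO2 times was itself called. CMM326C matched IRE1, the kinase and ribonuclease that senses unfolded proteins in the endoplasmic reticulum. It gave 233.8, 227.2 and 238.7 CPM at HC 0 h, 186.3, 247.8 and 250.7 at LC 3 h, 413.3, 432.6 and 418.7 at LC 24 h, and 263.3, 305.9 and 292.7 after recovery. The LC 24 h libraries stood above all others, with a log2 change of 0.85 ± 0.11 from HC 0 h and 0.89 ± 0.11 from LC 3 h (edgeR adjusted p = 4.77e-05 and 8.71e-05). At 3 h the change was -0.03 ± 0.11. CML228C, matched to the kinesin-interacting kinase KIPK, changed by 0.08 ± 0.16 at 3 h and rose by 0.93 ± 0.16 at 24 h, a rise from LC 3 h of 0.85 ± 0.16.

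The protein kinase-related CMK182C turned from low to high. Its CPM was 406.7, 453.4 and 430.8 at HC 0 h, 337.5, 339.4 and 325.8 at LC 3 h, 732.0, 763.4 and 722.1 at LC 24 h, and 511.9, 528.5 and 523.8 after recovery. None of the 4 groups overlapped. It fell by 0.36 ± 0.07 at 3 h and rose by 0.78 ± 0.07 at 24 h against HC 0 h (edgeR adjusted p = 0.00173 and 4.98e-06), a log2 change of 1.15 ± 0.07 between the low-CO2 times. CMT328C, matched to the blue-light receptor kinase phototropin 2, rose at both times, by 0.43 ± 0.07 and 0.77 ± 0.07.

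The largest falls among kinases, at LC 24 h, were carried by 2 of its 3 libraries. CMQ173C matched TOUSLED, a nuclear kinase whose animal relatives act on histone chaperones during DNA replication. It gave 216.8, 152.8 and 152.0 CPM at HC 0 h, 242.8, 176.8 and 147.7 at LC 3 h, 121.0, 39.0 and 43.1 at LC 24 h, and 242.3, 163.5 and 179.6 after recovery. Replicate 1 was the highest of its group at every time, and at LC 24 h it stood far above the other 2 libraries. The log2 change at LC 24 h was -1.35 ± 0.39 (edgeR adjusted p = 0.0118), and -2.08 without LC 24 h replicate 1. The call ended when only HC 0 h and LC 24 h entered the fit (adjusted p = 0.0705).

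CMO271C, described as a serine/threonine kinase, and CME172C, matched to the Ste20-type kinase SIK1, shared that split. CMO271C had 95.4, 25.6 and 25.7 CPM at LC 24 h against 154.8, 102.7 and 123.2 at HC 0 h. CME172C had 231.8, 46.0 and 45.9 CPM at LC 24 h against 295.7, 404.6 and 387.9 at HC 0 h. In both genes replicate 1 was the high library at LC 24 h. Their log2 changes were -1.36 ± 0.45 and -1.74 ± 0.55 (edgeR adjusted p = 0.0216 and 0.0171), and -2.30 and -2.98 without LC 24 h replicate 1. The call for CMO271C ended without HC 0 h replicate 1 (adjusted p = 0.0678) and without LC 24 h replicate 2 or 3 (0.0686 and 0.0682), and that for CME172C without LC 24 h replicate 2 or 3 (0.051 and 0.05). Both calls also ended when only HC 0 h and LC 24 h entered the fit (adjusted p = 0.108 for CMO271C and 0.0964 for CME172C).

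Matches to aurora kinase, WEE1 and YAK1 were not called against HC 0 h at either low-CO2 time. The match to aurora kinase, a mitotic kinase, CMQ044C, changed by 0.13 ± 0.17 at LC 3 h and -0.35 ± 0.17 at LC 24 h. From LC 3 h to LC 24 h CMQ044C was called lower, at -0.48 ± 0.17 (edgeR adjusted p = 0.037). That call ended under 7 alternatives (adjusted p = 0.0536 to 0.131). The match to WEE1, an inhibitor of entry into mitosis, CMT590C, changed by 0.22 ± 0.13 and -0.11 ± 0.13 from HC 0 h. With the replicate number as a block, CMT590C was called higher at LC 3 h at 0.23 (edgeR adjusted p = 0.0312). The match to YAK1, a kinase that restrains growth in yeast, CMH056C, changed by -0.05 ± 0.08 and 0.08 ± 0.08. CMO090C, matched to PDK1, which activates other kinases in lipid-dependent signalling, had 5.2, 4.11 and 2.87 CPM at HC 0 h and 15.8, 9.0 and 8.37 CPM at LC 3 h. It was higher at LC 3 h by 1.45 ± 0.37 (adjusted p = 0.00923) and fell again by LC 24 h, at 4.52, 2.41 and 2.06 CPM. These are among the lowest levels of the members.

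Estimated counts of the kinases CMB064C, CMB108C, CMS234C and CMO218C and of the methyltransferase CMP173C were not whole, as they are where reads are divided between genes, and their values are uncertain. Which genes shared those reads was not tested. The shaggy-like kinase CMO218C had 6.48, 7.88 and 4.13 CPM at HC 0 h and 0.0, 0.278 and 5.5 CPM at LC 3 h. The LC 3 h libraries differed from each other by more than the groups did, and the change was not called (log2 change -1.76 ± 0.89, edgeR adjusted p = 0.139). The other shaggy-like match, CMH187C, had whole counts and was lower at LC 24 h, at -0.57 ± 0.18 with overlapping groups (adjusted p = 0.0193), a call that ended without HC 0 h replicate 2 or 3 or LC 24 h replicate 2 or 3 (adjusted p = 0.056 to 0.0762).

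The regulatory subunits of kinases diverged from each other. SNF4 is the gamma subunit that binds adenine nucleotides in the SNF1 kinase complex, the counterpart of the AMP-activated kinase of animals and SnRK1 of plants. Of 2 SNF4 matches, CMA081C gave 197.3, 203.3 and 218.6 CPM at HC 0 h, 251.4, 414.3 and 388.5 at LC 3 h, 488.0, 493.8 and 500.1 at LC 24 h, and 236.0, 281.9 and 268.6 after recovery. It was higher in every low-CO2 library than in every HC 0 h library, by 0.77 ± 0.15 and then 1.26 ± 0.16 on the log2 scale (edgeR adjusted p = 0.00226 and 4.47e-05). The other, CMT495C, fell from 83.7 ± 2.16 CPM to 69.6 ± 1.61 and 75.0 ± 0.755 CPM, log2 changes of -0.26 ± 0.06 and -0.16 ± 0.06. The fall of CMT495C at LC 24 h lost its call without HC 0 h replicate 1 or 3 or any LC 24 h library (adjusted p = 0.0564 to 0.0952).

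Catalytic genes of that complex are listed under signalling and not among the members. Of the matches to the SnRK1 catalytic subunit KIN10, CMF139C rose by 0.60 ± 0.08 at LC 3 h and 0.25 ± 0.08 at LC 24 h (edgeR adjusted p = 1.34e-04 and 0.0146), the latter not called if HC 0 h replicate 2 was left out (adjusted p = 0.0593). CME146C and CMO207C changed by -0.06 ± 0.45 and -0.37 ± 0.19 at LC 3 h and were not called at either time. For casein kinase 2, a constitutively active kinase of many substrates, the catalytic alpha match CMP128C was lower at LC 3 h and LC 24 h, with log2 changes of -0.35 ± 0.08 and -0.50 ± 0.08. Its regulatory beta match CMM005C changed by -0.31 ± 0.12 and 0.18 ± 0.12 and was not called (adjusted p = 0.0503 and 0.182). With the replicate number as a block it was called lower at LC 3 h, at -0.32 (adjusted p = 0.0153).

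The member with the largest rise was a phosphatase. CMN326C matched DsPTP1, a dual-specificity phosphatase that removes phosphate from a mitogen-activated protein kinase in Arabidopsis. It gave 74.6, 84.2 and 97.1 CPM at HC 0 h, 358.1, 705.8 and 680.7 at LC 3 h, 746.1, 912.5 and 920.4 at LC 24 h, and 154.9, 237.0 and 233.0 after recovery. The groups HC 0 h, recovery and low CO2 were fully separate, in that order from low to high. Against HC 0 h the log2 change was 2.77 ± 0.26 after 3 h and 3.33 ± 0.27 after 24 h of low CO2, and 1.29 ± 0.25 in recovery (edgeR adjusted p = 1.33e-05, 2.29e-06 and 0.00898). Per length it was a low member before the shift, at 44.1 ± 5.57 TPM, rank 90 of 95.

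The 5 genes of the table whose log2 CPM was most like that of CMN326C over the 12 libraries, by Pearson correlation, were no members. They were the inositol phosphate kinase match CMQ073C (0.992), the GATA-type zinc finger protein CMD180C (0.988), the methylcrotonoyl-CoA carboxylase match CMT071C (0.986), the unassigned gene CML325C (0.984) and CME050C (0.983), a protein of the NLI-interacting factor family. The 12 points share 4 time points and their libraries, so these values describe shape and carry no test.

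Of the 11 tyrosine and dual-specificity phosphatases, 3 were higher and 1 lower at LC 3 h (22.1% and 19.3% of all genes). At LC 24 h, 5 were higher and 2 lower (32.7% and 30.3% of all genes). CMR492C, matched to the mitogen-activated protein kinase phosphatase MKP1, rose from 242.1 ± 13.9 CPM to 414.1 ± 59.9 at LC 3 h and 460.8 ± 42.0 at LC 24 h, log2 changes of 0.77 ± 0.12 and 0.93 ± 0.12 (edgeR adjusted p = 0.000396 and 5.57e-05). The tyrosine-specific phosphatase CMS432C rose by 0.61 ± 0.10 and 0.53 ± 0.10. A second DsPTP1 match, CMP161C, changed by -0.07 ± 0.10 at LC 3 h and rose by 0.41 ± 0.10 at LC 24 h. The PTP1 match CMP019C was lower at LC 24 h, at -0.20 ± 0.08 (adjusted p = 0.0353), a call that ended without HC 0 h replicate 1 or 2 or LC 24 h replicate 2 or 3 (adjusted p = 0.0914 to 0.115).

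Among the 10 catalytic serine/threonine phosphatases, 5 were higher and 4 lower at LC 24 h (32.7% and 30.3% of all genes). The 5 include CME181C, whose Arabidopsis match was weak (E-value of 0.017). The 4 include the TOPP4 match CME079C, at -0.36 ± 0.12, a call that ended under 2 alternatives (edgeR adjusted p = 0.0639 and 0.0797). At LC 3 h, 2 of the 10 were higher and none lower (22.1% and 19.3% of all genes). Those that rose at 3 h were a match to PP5 and CMQ308C, described only as a calcineurin-like phosphoesterase and counted here by hand. The latter, CMQ308C, had 140.9, 136.8 and 130.9 CPM at HC 0 h, 200.9, 218.9 and 201.0 at LC 3 h, 100.1, 108.6 and 107.2 at LC 24 h, and 112.4, 109.5 and 114.1 after recovery. It was above the starting level at 3 h and below it at 24 h in every replicate, with log2 changes of 0.60 ± 0.06 and -0.37 ± 0.06 (edgeR adjusted p = 1.86e-05 and 0.000291). The PP5 match CMP075C rose by 0.43 ± 0.08 and 0.26 ± 0.08, the latter not called if replicate 1 of HC 0 h or either of replicates 2 and 3 of LC 24 h was left out (adjusted p = 0.0589 to 0.0755). Of the 4 matches to PP2C phosphatases among these 10, CMS015C, CMK117C and CMH032C rose at LC 24 h by 0.56 ± 0.12, 0.48 ± 0.13 and 0.36 ± 0.13, and CMG203C changed by -0.04 ± 0.08. CMG113C, described as a protein kinase and a PP2C and counted with the kinases, rose by 0.52 ± 0.12 at LC 3 h and 0.38 ± 0.12 at LC 24 h. Its call at LC 24 h ended under 4 alternatives (adjusted p = 0.0502 to 0.0592). The call for CMH032C ended without any HC 0 h library or without LC 24 h replicate 2 or 3 (adjusted p = 0.0563 to 0.118).

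Subunits of protein phosphatase 2A moved apart. This enzyme joins a scaffold (A), a catalytic subunit (C) and 1 of several regulatory subunits (B) that choose the substrate. The regulatory match CME108C gave 178.1, 190.5 and 197.3 CPM at HC 0 h, 556.2, 1107.5 and 1048.2 at LC 3 h, 851.5, 940.4 and 916.2 at LC 24 h, and 212.2, 228.0 and 217.4 after recovery. All low-CO2 libraries exceeded all libraries at 5% CO2, and LC 3 h replicate 1 was again the lowest of the 6. Its log2 change was 2.26 ± 0.21 at both low-CO2 times (edgeR adjusted p = 1.21e-05 and 6.04e-06). The regulatory matches CMS430C and CMF150C were called higher at LC 24 h, at 0.77 ± 0.14 and 0.52 ± 0.13, after -0.01 ± 0.13 and -0.32 ± 0.14 at LC 3 h. With the replicate number as a block CMF150C was called lower at LC 3 h at -0.33 (adjusted p = 0.0117). CME104C fell by 0.41 ± 0.11 at LC 3 h, not called without LC 3 h replicate 3 (adjusted p = 0.0525), and was not called at LC 24 h.

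The catalytic match CML332C had 108.7, 85.9 and 95.0 CPM at HC 0 h, 112.0, 118.0 and 109.1 at LC 3 h, 54.8, 51.1 and 55.3 at LC 24 h, and 96.5, 89.1 and 88.2 after recovery. It was lowest in the LC 24 h libraries, with a log2 change of -0.84 ± 0.09 from HC 0 h and -1.07 ± 0.09 from LC 3 h (edgeR adjusted p = 1.15e-05 and 9.08e-06). At LC 3 h it changed by 0.23 ± 0.09 (adjusted p = 0.052), called with the replicate block (adjusted p = 0.0301). The scaffold match CMD050C changed by 0.26 ± 0.10 and 0.08 ± 0.10. Its groups overlapped at LC 3 h, and its call there (adjusted p = 0.0459) ended under 12 of the alternatives, among them each HC 0 h library left out in turn (adjusted p = 0.0803 to 0.114). CMR076C, matched to the phosphatase 2A activator PTPA, fell at both times, with log2 changes of -0.46 ± 0.13 and -1.01 ± 0.13. The fall of CMR076C at LC 3 h was no longer called when replicate 1 of HC 0 h or either of replicates 2 and 3 of LC 3 h was absent (adjusted p = 0.0692 to 0.0861).

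**Figure D3:**
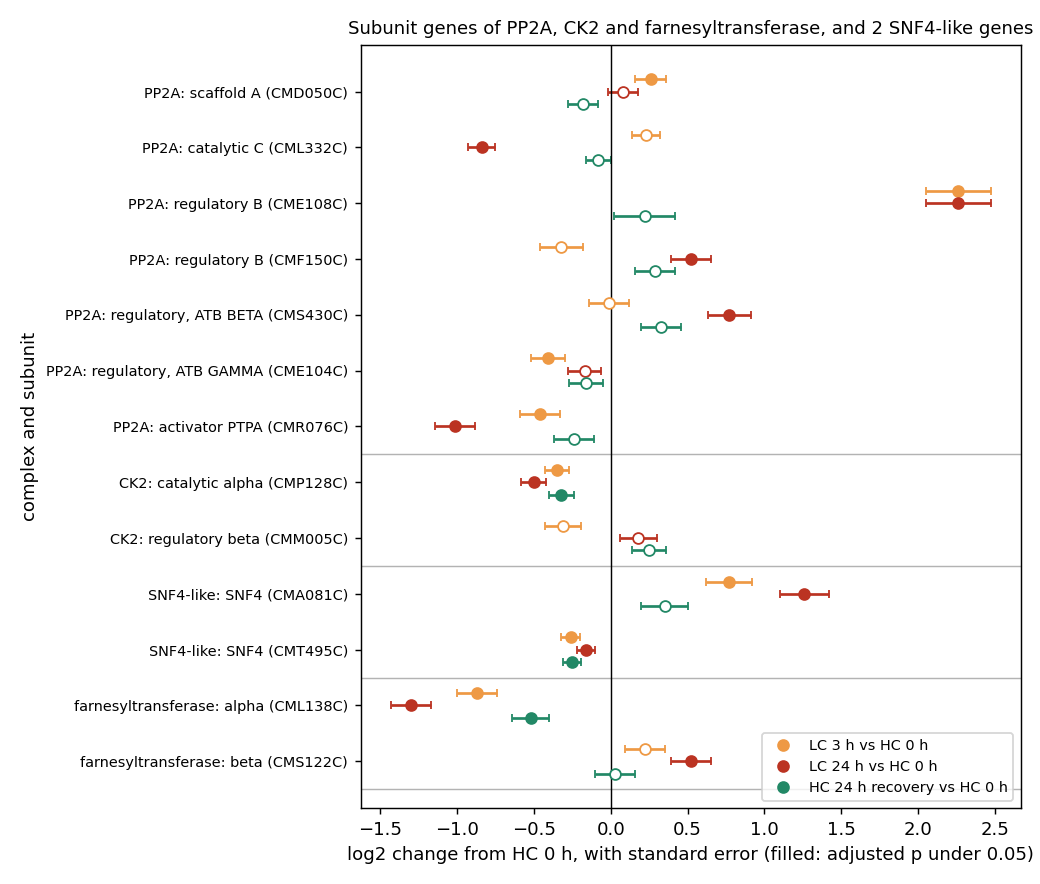
Points give the log2 change from HC 0 h with its standard error for subunit genes of protein phosphatase 2A, casein kinase 2 and farnesyltransferase and for both SNF4 matches, in colours for LC 3 h, LC 24 h and recovery. Filled points had an edgeR adjusted p under 0.05; CME108C stands at 2.26 at both low-CO2 times, while the catalytic CML332C and the activator CMR076C lie at -0.84 and -1.01 at LC 24 h.

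Lipid attachment showed the same lack of parallel change within an enzyme. Farnesyltransferase, which adds a farnesyl group to a carboxy-terminal cysteine, is a dimer of alpha and beta subunits. The alpha match CML138C had 38.9, 38.0 and 39.8 CPM at HC 0 h, 24.0, 20.5 and 19.1 at LC 3 h, 18.6, 13.5 and 15.1 at LC 24 h, and 28.4, 25.3 and 27.6 after recovery. It was below every HC 0 h library at each later time, with log2 changes of -0.87 ± 0.13, -1.30 ± 0.13 and -0.52 ± 0.12 (edgeR adjusted p = 0.00028, 7.99e-06 and 0.0201), the last not called without HC 0 h replicate 1, 2 or 3 or recovery replicate 2 or 3 (0.0501 to 0.0982). The beta match CMS122C gave 67.7, 72.7 and 71.1 CPM at HC 0 h and 76.8, 111.0 and 115.6 CPM at LC 24 h, a rise of 0.52 ± 0.13 (adjusted p = 0.0047). Both matches to the methyltransferase that caps prenylated cysteines changed at LC 24 h, CMP173C by -0.73 ± 0.18 and CMH202C by 0.47 ± 0.09. The N-myristoyltransferase match CMC071C rose at LC 24 h by 0.60 ± 0.12.

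All 4 repair and other modification members were higher at LC 24 h, a small group, where 32.7% of all genes tested were higher. CMP201C matched MSRB1, a methionine sulfoxide reductase that returns oxidised methionine to its reduced form. It had 97.6, 116.1 and 131.4 CPM at HC 0 h, 161.9, 202.4 and 208.9 at LC 3 h, 200.9, 250.5 and 236.6 at LC 24 h, and 117.9, 152.7 and 155.7 after recovery. The low-CO2 libraries lay above HC 0 h at both times, by 0.73 ± 0.15 and 0.99 ± 0.15 (edgeR adjusted p = 0.00244 and 0.000175). Another methionine sulfoxide reductase, CMS061C, rose by 0.40 ± 0.07 and 0.28 ± 0.07. CMI267C matched PIMT1, which repairs damaged aspartate residues of aged proteins, and stood at 167.5 ± 2.71 CPM at HC 0 h, 149.4 ± 0.642 at LC 3 h and 251.5 ± 1.74 at LC 24 h. Its rise at LC 24 h was 0.59 ± 0.06 (adjusted p = 8.2e-06), and its small fall at LC 3 h, -0.16 ± 0.06, lost its call without any HC 0 h library (adjusted p = 0.0644 to 0.108) and in 6 other settings. CMM216C, a weak match to a poly(ADP-ribose) polymerase, which adds ADP-ribose chains to proteins, was higher by 0.48 ± 0.08 at LC 24 h.

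The 17 members of another or unknown function included the largest called fall from HC 0 h at each low-CO2 time, that of CMF129C. The chaperonin matches help newly made proteins fold. The 10 kDa chaperonin CMF129C had 139.9, 104.1 and 110.6 CPM at HC 0 h, 72.6, 37.6 and 33.5 at LC 3 h, 21.9, 22.1 and 22.7 at LC 24 h, and 93.2, 88.1 and 87.4 after recovery. Every low-CO2 library lay below every HC 0 h library, with log2 changes of -1.30 ± 0.24 and -2.41 ± 0.24 (edgeR adjusted p = 0.00126 and 1.16e-05). The epsilon subunit of the cytosolic chaperonin, CML276C, fell as well, at -0.88 ± 0.22 and -1.69 ± 0.22. The RACK1 match CMI283C fell from 535.1 ± 20.9 to 275.1 ± 32.1 and 184.3 ± 33.5 CPM, log2 changes of -0.96 ± 0.15 and -1.54 ± 0.15. In contrast, the matches to galactolipases, enzymes that cut chloroplast lipids, CMT312C and CMR500C, rose by 1.58 ± 0.08 and 1.28 ± 0.06 at LC 24 h.

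From LC 3 h to LC 24 h, 26 members rose and 19 fell, 47.4% beside 53.2% of all genes (23.7% higher, 29.5% lower), and 7 members were called at 2-fold or more beside 8.55% of genes. Under upper-quartile scaling the count was 38 and 14. The largest called rise was that of CMK182C at 1.15 ± 0.07, followed by the galactolipase match CMT312C at 0.99 ± 0.08. The largest falls were those of PDK1-like CMO090C at -1.87 ± 0.37, CMQ173C at -1.48 ± 0.40 and CMO271C at -1.28 ± 0.45. CMQ173C and CMO271C were at -2.20 and -2.22 without LC 24 h replicate 1. The call for CMO271C ended without any LC 3 h library or LC 24 h replicate 2 or 3, and when only these groups entered the fit (edgeR adjusted p = 0.0503 to 0.117). The latter also ended the call for CMQ173C (adjusted p = 0.0537). The fit of these groups alone gave 10 members lower, and leaving out LC 24 h replicate 2 or 3 gave 12 in each case.

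After 24 h back at 5% CO2, 10 members were higher and 5 lower than at HC 0 h, 15.8% of the members beside 14.1% of all genes (7.24% higher, 6.82% lower), and 1 of them, CMN326C, by at least 2-fold (0.555% of all genes). These counts depended on single libraries: they were 5 and 0 without HC 0 h replicate 1, 4 and 0 without recovery replicate 2, 6 and 2 without recovery replicate 3, and 18 and 10 without LC 3 h replicate 1. The lower count was also 2 and 1 without HC 0 h replicate 2 and 3, and 8 without recovery replicate 1. Of the 15 named members called, 11 lost the call under some alternative. The remaining 4 were CMN326C, CMT328C at 0.54 ± 0.07, CMI267C at 0.39 ± 0.06 and CMR500C at 0.40 ± 0.06, all higher.

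Compared directly with LC 24 h, recovery had 18 members higher and 31 lower, 51.6% beside 49.6% of all genes (24.7% higher, 24.9% lower), and 8 members were called at 2-fold or more beside 8.51% of genes. The largest falls were those of CMN326C at -2.05 ± 0.25, CME108C at -2.04 ± 0.21, CMT312C at -1.19 ± 0.08, CMR245C at -1.04 ± 0.29, the SNF4 match CMA081C at -0.91 ± 0.15 and the kinase CMS345C at -0.91 ± 0.14. The largest called rises were those of CMF129C at 2.01 ± 0.24, CMQ173C at 1.52 ± 0.39, CML276C at 1.28 ± 0.22 and CMO271C at 1.17 ± 0.45. The call for CMO271C (edgeR adjusted p = 0.0485) was lost when any single library other than LC 24 h replicate 1 was left out, with RLE scaling and when only these groups entered the fit (adjusted p = 0.0501 to 0.157), and its change was 2.12 without LC 24 h replicate 1. CMQ173C was higher by 2.25 without LC 24 h replicate 1.

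This comparison shares no library with that of LC 3 h and HC 0 h. Of the 26 members higher at LC 3 h, 20 were lower on return, 76.9% of the former and 64.5% of the 31 latter. Of the 22 lower at LC 3 h, 10 were higher on return, 45.5% of the former and 55.6% of the 18 latter. None was higher in both, and 3 were lower in both, 13.6% of those lower at LC 3 h. Over all genes tested, 64% of those higher at LC 3 h were lower on return and 63.3% of those lower at LC 3 h were higher on return. These made up 56.8% of all genes lower on return and 49.5% of all genes higher on return. Of all genes higher at LC 3 h, 4.65% were higher in both, and of all genes lower at LC 3 h, 3.41% were lower in both.

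**Figure D4:**
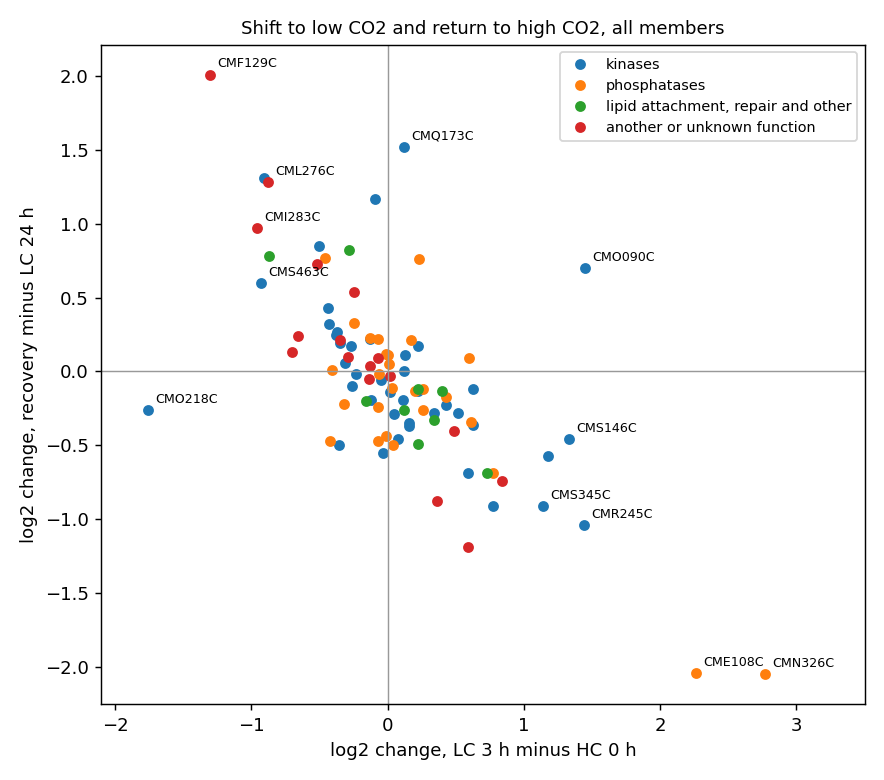
Each of the 95 points is a member, with its log2 change from HC 0 h to LC 3 h on the horizontal axis and from LC 24 h to recovery on the vertical axis, coloured by role. CMN326C and CME108C lie at the lower right and CMF129C at the upper left, and CMQ173C, at 0.12 and 1.52, was called on return and not at 3 h.

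Related genes outside the category, chosen by words in their descriptions or by category, were counted in the same way, beside 22.1% of all genes higher and 19.3% lower at LC 3 h and 32.7% and 30.3% at LC 24 h. Of 42 other genes described as protein kinases, a pattern that also caught some cyclins and sugar kinases, 9 were higher and 7 lower at LC 3 h and 16 higher and 10 lower at LC 24 h. Of 105 genes in the signalling category, 19 were higher and 24 lower at LC 3 h and 39 higher and 32 lower at LC 24 h. Of 15 genes with the letters of cyclin in the description, which also caught ribosome recycling factors and a transporter, 4 were higher and 2 lower at LC 3 h and 6 higher and 5 lower at LC 24 h. Of 13 protein glycosylation genes, 8 were lower and none higher at LC 3 h, and 6 were lower and 3 higher at LC 24 h. The words for protein phosphatases matched 3 other genes, calcineurin-like phosphoesterases and a ribosomal protein, of which 1 was lower at LC 3 h and 1 was higher and 1 lower at LC 24 h. The median log2 change of these lists lay between -0.23 and 0.03 at LC 3 h and between -0.35 and 0.07 at LC 24 h, beside 0.02 for all genes at both times.

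In the authors' deposited table, a q-value under 0.05 was given to 20 members for LC 3 h, where 13.1% of all genes had one, to 24 for LC 24 h (23.2% of all genes) and to 2 for recovery (2.96% of all genes). The authors' deposited table gave 12, 15 and 2 of these members a positive log2 fold change.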

How the data were processed

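Per the labels' protocols, the 12 libraries were prepared with an unstranded TruSeq kit and sequenced from both ends, 100 bases each. Reads of overlapping genes on opposite strands can therefore not be told apart. The submitters' processing notes name CASAVA 1.8, Bowtie2, RSEM and edgeR, with no roles. Genome build: not given in the sources used here. The authors deposited 1 table of estimated counts and TPM per library, per the file headers, with log2 fold changes and q-values of the authors' own comparisons, whose test is not stated. 94% of the estimated counts were whole (to within 1e-09), and all were rounded. The score of each Arabidopsis match is a BLAST E-value, per the file headers.

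Counts were tested with edgeR 4.0.16 (limma 3.58.1, R 4.3.3). A single model of the 4 groups held the 12 libraries, scaled by TMM after filterByExpr (4865 genes kept, 105 removed), with the robust quasi-likelihood F test and Benjamini-Hochberg adjustment over all genes tested, within each of 5 comparisons. The standard error is the size of the log2 change over the square root of F. CPM are TMM-scaled, and levels of different genes were compared in the deposited TPM. All 95 members had an entry in RefSeq's ASM9120v1 gene list, used for identifiers. P-values weigh a difference of group means against the spread between libraries of the same group, estimated from all 12 libraries together, 3 per group.

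The members, the lists and the alternatives were chosen with earlier results of these data known. Roles were assigned by hand from the descriptions. The values of 1 member, which is in all counts, are not reported here. Named genes were the 12 largest rises and falls per comparison with HC 0 h and the 6 largest in the others, among members with an adjusted p under 0.05 and an average log2 CPM of at least 3, plus members of word-matched families, giving 64. All 64 were run through the alternatives. Some of them, such as CML085C, CMM185C, CMQ162C and CMQ074C, have no values printed above. The members CME104C, CMH056C, CMH187C, CMM005C, CMO173C, CMP019C, CMP075C, CMP161C, CMS061C, CMS430C and CMS432C and the KIN10 matches were named outside this rule, after their values were seen.

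Replicate numbers come from the sample titles. Samples of the same number deviated together in all 3 pairs between LC 3 h and HC 0 h (correlations of 0.243 to 0.456). They also did so between recovery and LC 24 h (0.212 to 0.535), but not in all pairs of the other comparisons. For LC 3 h with HC 0 h and for recovery with LC 24 h alike, 4 of 6 libraries correlated best with their own number. HC 0 h replicate 3 correlated with LC 3 h replicate 2 at 0.435. Over all pairs of groups, the median correlation was 0.296 for the same number, with 15 of 18 pairs over 0.1. For different numbers the median was -0.18, with 8 of 36 pairs over 0.1. The check did not settle whether the numbers pair the samples, and the main fit did not use them. If they mark cultures followed over time, the groups are not independent, and the main fit leaves this out. Alternatives were scaling by upper quartile or RLE, no low-count filter, at least 10 CPM in 3 libraries, DESeq2 1.42.0, the replicate block, fits of only the groups compared, each library left out in turn, members with an E-value of at most 1e-05 and, added after seeing the data, the genes without a length left out. The test was also run on simulated counts, with independent libraries and a spread set by the trend over all genes. These held no effect of a replicate or of a single library, so the run does not cover such effects.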

Additional observations from a re-analysis of the deposited data

How the results depend on the processing

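Of the counts of members called, those at LC 3 h and LC 24 h against HC 0 h and those of recovery against LC 24 h stayed within 1.5 times of the reported count in every alternative run. The counts of recovery against HC 0 h did not. With the replicate block they were 19 higher and 10 lower in place of 10 and 5, and DESeq2 gave 8 lower. Only the LC 24 h and LC 3 h groups in the fit gave 10 members lower at LC 24 h than at LC 3 h in place of 19. Leaving out 1 library at a time gave 23 to 29 higher and 18 to 27 lower at LC 3 h, 38 to 43 and 21 to 29 at LC 24 h, 4 to 18 and 0 to 10 after recovery, 13 to 23 and 24 to 32 for recovery against LC 24 h, and 22 to 26 and 12 to 22 for LC 24 h against LC 3 h. Where a group was left with 2 libraries, the spread was shared with the other groups. The causes were not tested. Not all same-number pairs deviated together for LC 24 h or recovery against HC 0 h, or for LC 24 h against LC 3 h. There 4 to 5 of 6 libraries correlated best with their own number, beside 4 of 6 in the other comparisons. No named result changed direction past the threshold. Over all genes, upper-quartile scaling moved the split at LC 3 h from 1076 higher and 939 lower to 861 and 1321. The median log2 change was -0.08 in place of 0.02, so small changes at LC 3 h, of about the size of this shift, depend on the scaling. CMO090C and CMO218C, with the lowest CPM of the members at HC 0 h (4.06 and 6.16), rest on few reads.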
